A study of Homo sapiens with 97 samples.

Results

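The data described here are the untreated libraries of HEK293T cells, a human embryonic kidney line, that stably expressed the peroxidase APEX2 on the outer mitochondrial membrane (OMM). They were taken by their labels as the OMM columns of the poly(A) count table and make up 4 of the 97 samples of the study, across 22680 expressed genes. In the labelled group (n = 2) the cells were given biotin-phenol for 30 min and then 1 mM hydrogen peroxide for 1 min. The unlabelled group (n = 2) carried the same construct and biotin-phenol and got no peroxide. RNA was enriched by its biotin tag in both groups, so the unlabelled libraries show what is recovered without tagging. The cells are a stable line in culture, without a primary tissue, and the labels call the 2 libraries of a group biological replicates without saying how they were grown apart. P-values therefore measure spread between libraries, estimated over all 36 libraries of the table and not from these 4 alone. The same table holds 8 other constructs, of which NES (cytosol) and ERM (cytosolic face of the endoplasmic reticulum, ER) are used for comparison, each with n = 2 labelled and n = 2 unlabelled libraries.

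Most mitochondrial proteins are encoded in the nucleus, made on cytosolic ribosomes and imported through translocases of the outer and inner membranes. Many matrix proteins carry an amino-terminal targeting sequence that is rich in arginine, poor in acidic residues and removed after import. A transcript can lie at the organelle while its nascent chain engages the import receptors or while RNA-binding proteins of the outer membrane hold it. Transcripts of secreted and membrane proteins are bound in the same way to the ER, which contacts mitochondria at many sites. Peroxidase labelling tags RNA close to the enzyme in living cells.

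The labelled libraries held 24728150 and 36661323 counts and the unlabelled ones 31246569 and 34603941 counts. Unlabelled replicate 2 stood apart. It lacked any count for 4.06% of 11862 well-expressed genes, against 0.034% and 0.0% in the labelled libraries and 0.008% in the other unlabelled one. The median absolute difference between replicates over well-expressed genes (a mean of at least 5 CPM, the count of a gene scaled to a common library total, over the 36 libraries of the table) was 0.24 on the log2 scale in the labelled pair and 0.52 in the unlabelled pair. Of 9 genes known for HEK293T cells, all reached 1 CPM in at least 1 of the 4 libraries, and their summed level was 613 and 657 CPM in labelled against 994 and 1178 CPM in unlabelled libraries. Of 12 markers of other cell types, 9 were at 0 in all 4 libraries and the 12 together summed to 4.87 and 10.9 CPM in labelled against 14.3 and 18.7 CPM in unlabelled libraries.

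Transcripts of mitochondrial matrix enzymes led the OMM-labelled RNA, and transcripts of secreted and membrane proteins were also among those that rose. Most messages of the mitochondrial genome and many of those for cytosolic ribosomal proteins fell. Of 22680 genes tested, 681 were higher (3.0%) and 450 lower (1.98%) in labelled than in unlabelled libraries at an adjusted p under 0.05 (edgeR's quasi-likelihood test with Benjamini-Hochberg adjustment). The higher genes had a median log2 fold change of 1.41, and 88 of them reached 2. The lower genes had a median of -0.996 and 5 of them reached -2. Of the higher genes 677 were protein coding. Of the lower ones 403 were protein coding and 38 were processed pseudogenes, whose reads cannot be told from those of their parent genes in these counts. The median over all genes was 0.06. Both groups are biotin-enriched RNA of 1 stable line, so a fold change compares recovery with and without tagging. The RNA level per cell was not measured. Without unlabelled replicate 2 the test called 279 genes higher and 161 lower, and without unlabelled replicate 1 it called 1559 and 625.

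The largest rise was in GLDC, the decarboxylase of the glycine cleavage system (chromosome 9, 6532464 to 6645783, GRCh38). It had 601 and 567 CPM in labelled libraries against 59.1 and 18.9 CPM in unlabelled ones, a log2 fold change of 3.91 ± 0.39 (SE, adjusted p = 2.95e-08). AASS, which starts lysine breakdown, had 604 and 706 CPM in labelled against 45.6 and 46.9 CPM in unlabelled libraries (3.82 ± 0.36, adjusted p = 6.18e-09). PDPR, the regulatory subunit of pyruvate dehydrogenase phosphatase, had 1039 and 1057 CPM in labelled against 102 and 73.2 CPM in unlabelled libraries (3.58 ± 0.27). In each of these genes the labelled libraries lay close together and far above both unlabelled ones, and the calls held under every alternative tried.

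LARS2, the mitochondrial leucyl-tRNA synthetase, had 1387 and 1570 CPM in labelled against 173 and 98.7 CPM in unlabelled libraries (log2 fold change 3.45 ± 0.25). IARS2, which charges mitochondrial tRNA with isoleucine, had 3621 and 3595 CPM in labelled against 505 and 396 CPM in unlabelled libraries (3.00 ± 0.18, adjusted p = 7.83e-14). ALDH18A1, the first enzyme of proline synthesis, had 2987 and 2863 CPM in labelled against 326 and 259 CPM in unlabelled libraries (3.32 ± 0.19, adjusted p = 7.83e-14). The last 2 were the most abundant of the leading transcripts, so their change rests on the deepest counts.

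Of the 14 genes with the largest rises, GPD2 (glycerol phosphate dehydrogenase of the inner membrane), CPS1 (carbamoyl phosphate synthesis), MUT (methylmalonyl-CoA mutase), AARS2 (alanyl-tRNA synthetase), NLRX1 (a mitochondrial NOD-like receptor) and GUF1 (a mitochondrial translation GTPase) also encode mitochondrial proteins, with log2 fold changes of 2.88 to 3.13. GPD2 had 297 and 314 CPM in labelled against 65.7 and 4.22 CPM in unlabelled libraries, so the size of its rise depends on 1 unlabelled library. The other 2 of the 14 are not mitochondrial proteins. KIF1A, a kinesin motor of axonal transport, had 691 and 837 CPM in labelled against 83.1 and 119 CPM in unlabelled libraries (2.92 ± 0.32). NPTXR, a neuronal pentraxin receptor, had 55.9 and 56.1 CPM in labelled against 12.2 and 2.28 CPM in unlabelled libraries (2.95 ± 0.76, adjusted p = 0.0147). NPTXR was no longer called without unlabelled replicate 2 or without either labelled library.

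**Figure D1:**
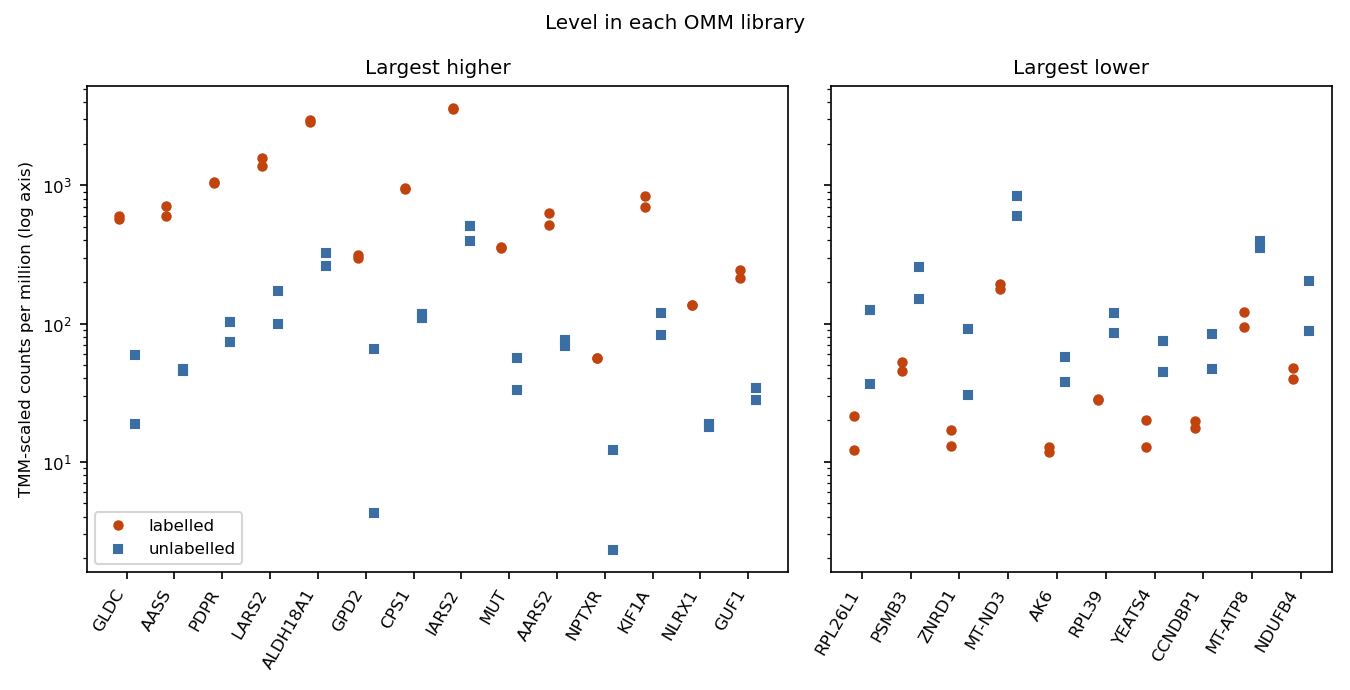
Level of the 14 genes with the largest rises and the 10 with the largest falls in each of the 4 OMM libraries, as TMM-scaled CPM on a log axis (circles labelled, squares unlabelled). Both labelled libraries lie beyond both unlabelled ones in all 24 genes, which the rule for choosing them required, and the unlabelled pair is spread more widely for GLDC, GPD2 and NPTXR. Among the falls, the calls of RPL26L1, ZNRD1, AK6, YEATS4 and CCNDBP1 were lost without unlabelled replicate 2. Their log2 fold changes were then -1.03 (ZNRD1) to -1.61 (AK6). The calls of AK6, ZNRD1 and CCNDBP1 were also lost without either labelled library, and those of YEATS4 and RPL26L1 without labelled replicate 1.

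The start of the coding sequence is shown because it encodes the amino terminus where targeting sequences lie. It is given for 6 leading matrix proteins and for 2 short proteins whose transcripts were lower, NDUFB4 of complex I and ATP5MC1 of ATP synthase. The NDUFB4 call was lost without either labelled library and without unlabelled replicate 2 (log2 fold change -1.03). That of ATP5MC1 was lost without unlabelled replicate 2 (-0.96). Each line holds the first 90 coding bases, 5′ to 3′, of the gene's GENCODE 29 transcript on GRCh38, and capitals mark in-frame arginine codons.
GLDC: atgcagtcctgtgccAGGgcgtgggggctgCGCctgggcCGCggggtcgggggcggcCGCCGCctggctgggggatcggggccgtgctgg
AASS: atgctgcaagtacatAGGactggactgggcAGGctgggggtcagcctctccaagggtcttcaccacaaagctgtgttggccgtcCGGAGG
PDPR: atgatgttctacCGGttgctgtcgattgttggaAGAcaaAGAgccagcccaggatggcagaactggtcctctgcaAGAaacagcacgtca
LARS2: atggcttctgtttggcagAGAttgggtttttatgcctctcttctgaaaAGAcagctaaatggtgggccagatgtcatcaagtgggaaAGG
ALDH18A1: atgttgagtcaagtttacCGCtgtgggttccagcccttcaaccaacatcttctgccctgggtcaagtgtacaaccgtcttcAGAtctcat
IARS2: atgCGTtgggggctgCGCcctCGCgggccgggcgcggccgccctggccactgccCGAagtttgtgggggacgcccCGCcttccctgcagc
NDUFB4: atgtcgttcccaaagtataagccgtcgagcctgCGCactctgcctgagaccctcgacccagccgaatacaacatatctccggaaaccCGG
ATP5MC1: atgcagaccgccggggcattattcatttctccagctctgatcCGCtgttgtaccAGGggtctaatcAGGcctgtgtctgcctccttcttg
The 6 leading genes carry 5, 4, 4, 3, 2 and 5 arginine codons among these 30, and all but LARS2 have no codon for an acidic residue. NDUFB4, an accessory subunit of complex I, has 2 arginine and 4 acidic codons. ATP5MC1, which encodes the c-ring protein of ATP synthase, has 3 arginine and 0 acidic codons, so this stretch alone did not separate it from the leading genes.

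Nuclear-encoded mitochondrial transcripts held both higher and lower genes. Over 18 lists of such genes, 37 of 552 tested were higher and 52 were lower, with a median log2 fold change of -0.21, against 0.06 over all genes. Of 11829 well-expressed genes tested, 678 were higher and 450 lower. The share of list genes called higher was thus near that of well-expressed genes, and the share called lower was above it. The mitochondrial tRNA synthetases had 5 of 17 higher and 0 lower, with a median of 0.41. Besides LARS2, IARS2 and AARS2, TARS2 rose by 2.02 ± 0.22 and VARS2 by 1.97 ± 0.23 on the log2 scale. In each leave-one-out refit 5 or 6 of the list were higher. Matrix amino acid enzymes had 5 of 36 higher, among them GLDC, AASS, ALDH18A1 and MUT, and 1 lower, OAT, the ornithine aminotransferase, at -1.27 ± 0.21. The citric acid cycle list had 3 of 26 higher and 3 lower. There PDPR and the oxoglutarate dehydrogenase subunit OGDH (1.38 ± 0.31) were among those that rose, and MDH2 (-0.83 ± 0.17), PDHA1 (-0.83 ± 0.20) and PDHB (-0.78 ± 0.19) fell. The calls of OGDH, MDH2 (-0.55), PDHA1 (-0.52) and PDHB (-0.71) were lost without unlabelled replicate 2. OGDH and PDHB were also lost without labelled replicate 2, and MDH2 and PDHA1 without labelled replicate 1.

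Genes that maintain and express the mitochondrial genome had 7 of 42 higher and 3 lower. The elongation factors GFM2 (log2 fold change 2.67 ± 0.32) and GFM1 (1.78 ± 0.22), the RNA polymerase POLRMT (2.22 ± 0.32), the tRNA 3′ processing enzyme ELAC2 (2.22 ± 0.20) and the DNA polymerase POLG (1.61 ± 0.20) rose. The elongation factor TSFM (-1.66 ± 0.33), the single-stranded DNA-binding protein SSBP1 (-1.03 ± 0.21) and the tRNA-modifying enzyme TRMU (-1.09 ± 0.27) fell. These 3 calls were lost without unlabelled replicate 2, with TRMU at -0.49 (adjusted p = 0.763), TSFM at -1.10 and SSBP1 at -0.73. TRMU was also lost without either labelled library, and SSBP1 without labelled replicate 2. Chaperones and proteases of the matrix had 4 of 26 higher, among them the peptidases MIPEP and PITRM1 and the PMPCA subunit of the processing peptidase. The MIPEP call was lost without either labelled library and without unlabelled replicate 2 (log2 fold change 1.86). The chaperonins HSPD1 (-0.65 ± 0.15) and HSPE1 (-0.94 ± 0.22) fell, calls that were both lost without labelled replicate 2. That of HSPE1 was also lost without labelled replicate 1.

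Subunits of the respiratory chain, of ATP synthase and of the mitochondrial ribosome lay on the lower side, and not only at the OMM. With NES labelling complex I had 8 of 37 lower (median -0.77) and ATP synthase 10 of 18 (median -0.76). The large mitochondrial ribosomal subunit had 7 of 49 lower there (median -0.73). Of the 52 mitochondrial list genes lower at the OMM, 28 were also called lower with NES and 50 with ERM labelling. At the OMM, complex I had 0 of 37 higher and 5 lower (median -0.62). ATP synthase had 0 of 18 higher and 10 lower (median -0.81), and ATP5F1C, its gamma subunit, had 112 and 110 CPM in labelled against 259 and 323 CPM in unlabelled libraries (-1.39 ± 0.21). Complexes II, III and IV had 7 of 26 lower and 1 higher, SDHA, the flavoprotein of complex II, with 487 and 491 CPM in labelled against 169 and 219 CPM in unlabelled libraries (1.33 ± 0.24). The large mitochondrial ribosomal subunit had 0 of 49 higher and 6 lower (median -0.57), and the small one 0 of 32 higher and 3 lower (median -0.39). These falls were fewer without unlabelled replicate 2, which left 0 lower in complex I, 2 in ATP synthase and 2 in the large ribosomal subunit.

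**Figure D2:**
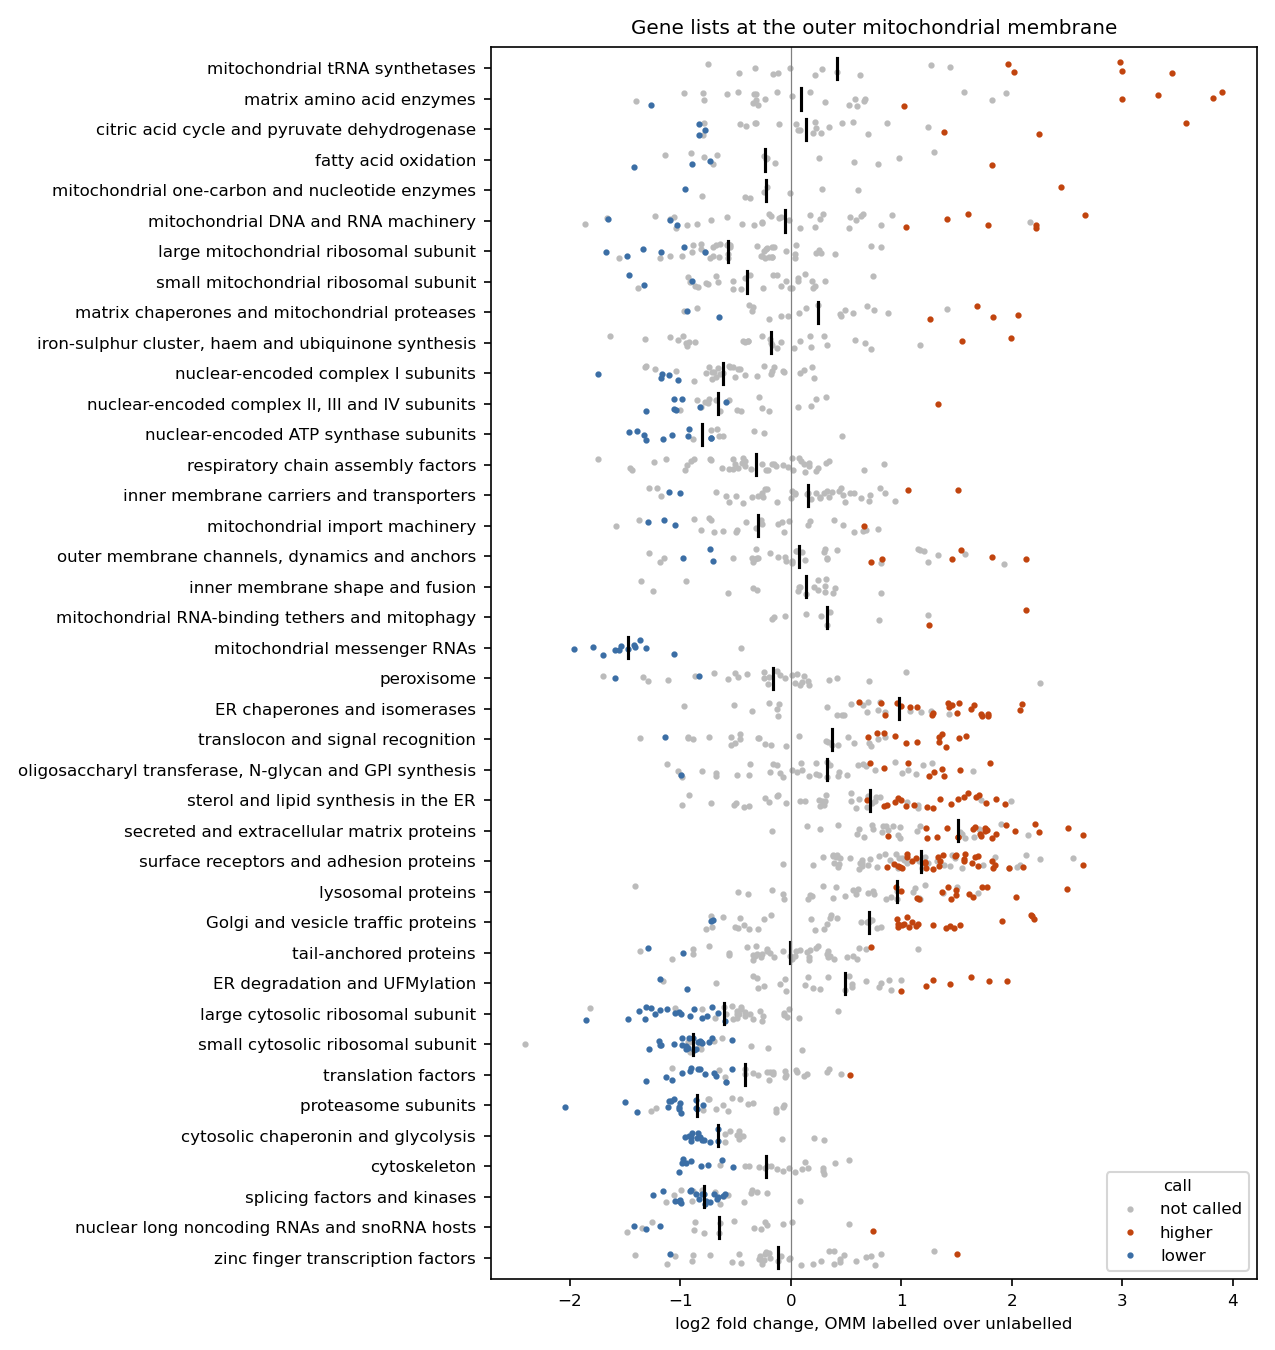
Log2 fold change of OMM labelled over unlabelled libraries for each well-expressed member of 40 gene lists, 1 dot per gene, coloured by its call, with a black bar at the median of the members drawn. A few matrix-protein genes stand far to the right of their lists, most secretory lists have a median above 0 (tail-anchored proteins, at -0.01 over tested members, do not), and the mitochondrial messenger RNAs and ribosomal lists lie to the left.

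The mitochondrial genes that rose had long coding sequences. Among 538 well-expressed members with a coding sequence, the median coding length was 2337 bases in the 37 higher genes, 618 bases in the 52 lower ones and 927 bases in the 449 that were not called. Of 108 genes whose coding sequence exceeded 1500 bases 32 were higher and 1 lower, with a median log2 fold change of 0.54. Of 179 genes of 901 to 1500 bases 1 was higher and 15 lower (median -0.18). Of 138 genes of 451 to 900 bases 2 were higher and 15 lower (median -0.42), and of 113 up to 450 bases 2 were higher and 21 lower (median -0.65). The 5 higher genes up to 1500 bases were the carrier SLC25A30 and 4 genes of membrane-anchored proteins, ATAD1, PGAM5, CYB5B and TOMM20. Without unlabelled replicate 2, 22 of the 108 long genes were higher and 1 of the 430 shorter ones.

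By rank correlation, the relation to coding length was about as strong with NES labelling and stronger with ERM labelling. Spearman's rho between coding length and log2 fold change across these 538 genes was 0.46 for OMM, 0.45 for NES and 0.52 for ERM labelling, and with the length of the whole transcript it was 0.46, 0.45 and 0.67 in the same order. These are correlations across genes that share libraries and are given as a description. In the longest class, however, the medians were 0.54 for OMM, -0.05 for NES and -0.11 for ERM. Tested as a difference, 26 of the 108 longest genes were higher in OMM than in NES labelling and 0 lower, where 1.58% of all genes tested were called higher. In the shorter classes 0 of 113, 0 of 138 and 1 of 179 were higher than in NES labelling.

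Other coding genes of more than 1500 bases did not show this as a whole. Of 4938 such genes outside the mitochondrial lists 175 were higher in OMM than in NES labelling and 27 lower, with a median difference of -0.12 on the log2 scale. The secretory and ER list genes among them did, with 65 of 217 higher and 1 lower (median 1.37). In their shorter classes 44 of 128, 25 of 105 and 0 of 25 were higher than in NES labelling, from longer to shorter. Arginine codons among the first 30 differed little within the long class of mitochondrial genes, with a median of 4.0 in the 32 higher genes and 3.5 in the 76 others. Genes with no acidic codon in that stretch numbered 21 of 32 higher and 38 of 76 others. Spearman's rho of arginine codons with the OMM log2 fold change was 0.05 across the 538 genes.

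**Figure D3:**
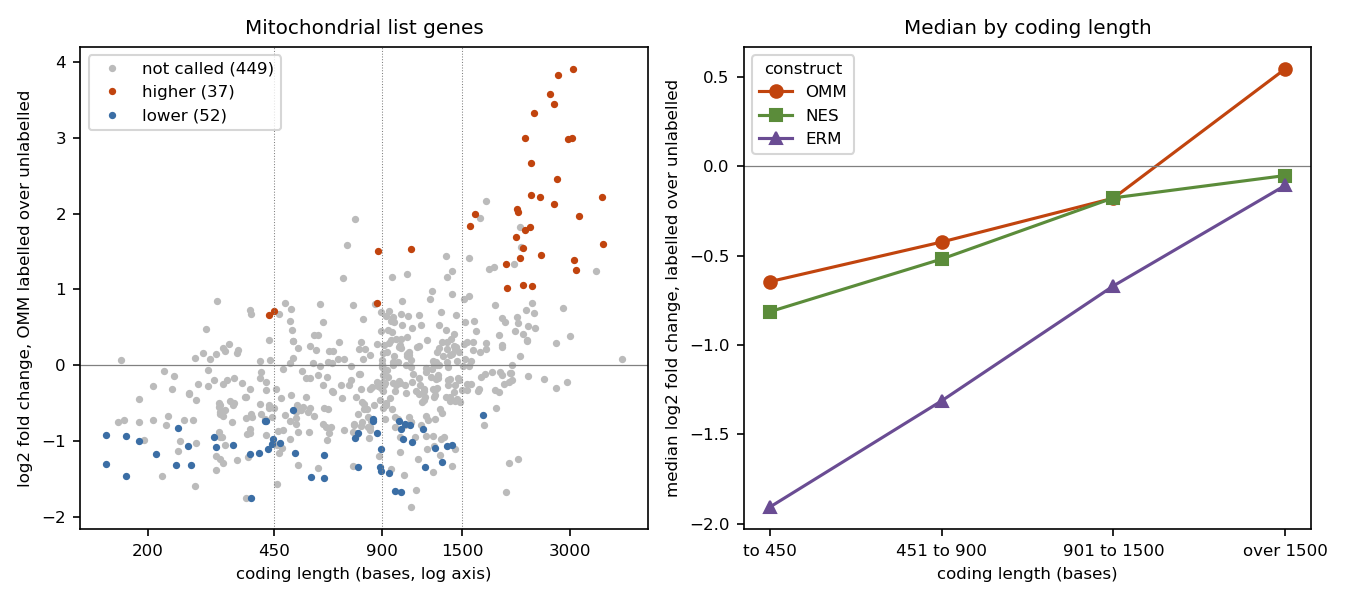
Left, log2 fold change of OMM labelled over unlabelled libraries against coding length in bases (log axis) for 538 mitochondrial list genes, coloured by call, with dotted lines at the class limits. Right, the median log2 fold change in 4 classes of coding length for OMM, NES and ERM labelling, where the OMM median in the class over 1500 bases is 0.54 and those of NES and ERM are -0.05 and -0.11.

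Among transcripts of the outer membrane itself, 6 of 44 were higher and 3 lower, with a median log2 fold change of 0.08. AKAP1, an anchor protein that binds RNA at the outer membrane, had 748 and 767 CPM in labelled against 146 and 199 CPM in unlabelled libraries (2.13 ± 0.23, adjusted p = 7.05e-08). CPT1A, which forms acylcarnitine for fatty acid entry, rose by 1.82 ± 0.35, the protein-extracting ATPase ATAD1 by 1.54 ± 0.25 and the acyltransferase GPAM by 1.46 ± 0.30, a call lost without unlabelled replicate 2. The import receptor TOMM20 had 1091 and 1080 CPM in labelled against 713 and 660 CPM in unlabelled libraries (0.66 ± 0.15, adjusted p = 0.00508). This call was lost without either labelled library and without unlabelled replicate 2. With ERM labelling TOMM20 rose by 1.40 on the log2 scale, and the difference between OMM and ERM labelling did not pass (-0.74 ± 0.21, adjusted p = 0.0703). VDAC1, the main anion channel of the outer membrane, had 178 and 160 CPM in labelled against 249 and 301 CPM in unlabelled libraries (-0.70 ± 0.21, adjusted p = 0.0448), and this call was lost in each leave-one-out refit but that without unlabelled replicate 1.

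Transcripts of the mitochondrial genome, which are made and translated inside the matrix, were lower. Reads from that genome made up 1.66% and 1.67% of counts in labelled against 4.74% and 4.76% in unlabelled libraries. Of 13 mitochondrial messenger RNAs 12 fell and 0 rose, with a median log2 fold change of -1.48. MT-CO1, a core subunit of cytochrome c oxidase, had 3614 and 3910 CPM in labelled against 9551 and 10571 CPM in unlabelled libraries (-1.42 ± 0.24, adjusted p = 0.000154). MT-ND3, a subunit of complex I, had 192 and 177 CPM in labelled against 601 and 835 CPM in unlabelled libraries (-1.96 ± 0.28). MT-ND6, the one message transcribed from the opposite strand to the others, was not called (-0.45 ± 0.32), with 159 and 74.1 CPM in labelled against 188 and 130 CPM in unlabelled libraries. The same list was as low with the cytosolic construct, where 13 of 13 fell (median -1.74), and 0 of 13 were called in either direction in the difference between OMM and NES labelling.

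Of the 681 higher genes, 158 were on lists of the secretory pathway and the ER alone, 37 were on mitochondrial lists and 482 were on none of the lists. Across 10 lists of the secretory pathway, leaving out members also on a mitochondrial list, 158 of 483 tested genes were higher and 6 lower, with a median log2 fold change of 0.79. Without unlabelled replicate 2, 82 were higher and 2 lower. Secreted and matrix proteins of the extracellular space had 22 of 52 higher and 0 lower (median 1.46), and surface receptors and adhesion proteins 32 of 83 higher and 0 lower (median 1.19). Lysosomal proteins had 15 of 46 higher and 0 lower, Golgi and vesicle proteins 19 of 48 higher and 2 lower, and enzymes of sterol and lipid synthesis 20 of 57 higher and 0 lower.

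ER chaperones had 22 of 44 higher and 0 lower (median 0.98). CANX, a lectin chaperone of the ER membrane, had 3939 and 3943 CPM in labelled against 1360 and 1132 CPM in unlabelled libraries (1.66 ± 0.17). SCD, the stearoyl-CoA desaturase, had 2903 and 3114 CPM in labelled against 860 and 709 CPM in unlabelled libraries (1.94 ± 0.14). The cargo receptor SURF4 (2.20 ± 0.23) and TGOLN2 of the trans-Golgi network (2.18 ± 0.19) rose further. HSPA5, the lumenal chaperone BiP, was not called, with 1189 and 1104 CPM in labelled against 822 and 825 CPM in unlabelled libraries (0.48 ± 0.19, adjusted p = 0.178). Tail-anchored proteins, which are inserted after translation ends, had 1 of 45 higher and 2 lower (median -0.01). Peroxisomal genes had 0 of 32 higher and 2 lower.

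Several lists of cytosolic and nuclear proteins held many lower genes. Ribosomal proteins of the small cytosolic subunit had 0 of 32 higher and 21 lower (median -0.88) and those of the large subunit 0 of 46 higher and 19 lower (median -0.60). Many of these genes have near-identical processed pseudogenes, so single values are uncertain. The proteasome had 0 of 31 higher and 15 lower, the chaperonin and glycolysis list 0 of 24 higher and 13 lower, and splicing factors 0 of 36 higher and 20 lower. Translation factors had 1 of 38 higher and 13 lower, the cytoskeleton list 0 of 29 higher and 9 lower, and zinc finger factors 1 of 47 higher and 1 lower (median -0.20). With the cytosolic construct NES, set against its own unlabelled libraries, 29 of 46 genes of the large and 24 of 32 of the small ribosomal subunit were lower. GAPDH, a glycolytic enzyme, had 1238 and 1385 CPM in labelled against 2378 and 2513 CPM in unlabelled libraries (-0.90 ± 0.18, adjusted p = 0.00123). PSMB3, a proteasome core subunit, had 45.7 and 52.5 CPM in labelled against 149 and 256 CPM in unlabelled libraries (-2.05 ± 0.26). Without unlabelled replicate 2, the small ribosomal subunit kept 9 lower, the large one 10 and the proteasome 7.

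The next comparison asks which of these transcripts were more enriched at the OMM than in the cytosol. Labelling at the OMM exceeded that at NES for 359 of 22680 genes (1.58%) and fell short for 32 (0.141%). Of the NES libraries, unlabelled replicate 1 lacked 3.37% of well-expressed genes. Without that library 286 genes were higher and 4 lower. Without unlabelled replicate 2 of NES 395 were higher and 620 lower, and without OMM unlabelled replicate 1 1021 and 81. Without NES labelled replicate 2 the counts were 131 and 3, without NES labelled replicate 1 228 and 23, without OMM labelled replicate 1 227 and 3, without OMM labelled replicate 2 214 and 22 and without OMM unlabelled replicate 2 218 and 9. With no libraries besides these 2 constructs 130 were higher and 0 lower by edgeR, where 1668 had an unadjusted p under 0.05 and DESeq2 called 130 lower in the whole table. Of the mitochondrial lists 27 of 552 genes were higher and 0 lower. GLDC had 40.4 and 40.3 CPM in NES labelled against 51.3 and 51.0 CPM in NES unlabelled libraries, and its difference between OMM and NES labelling was 4.25 ± 0.52 on the log2 scale (adjusted p = 3.03e-06). IARS2 had 269 and 253 CPM in NES labelled against 449 and 360 CPM in NES unlabelled libraries, and its difference was 3.63 ± 0.24 (adjusted p = 4.06e-12). ER chaperones had 22 of 44 higher and secreted proteins 20 of 52. Subunits of ATP synthase, complex I and both mitochondrial ribosomal subunits had 0 called in either direction, and a p that misses the threshold does not show that they were alike. The largest falls relative to NES were in ZFYVE26, TP53BP1, TLN1 and NSF (-1.43 to -1.94), none of which was called against the OMM unlabelled libraries.

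Set against the ER construct, OMM labelling was higher for 363 genes (1.6%) and lower for 41 (0.181%), with a median difference of 0.28 on the log2 scale over all genes and 0.13 over well-expressed ones. The median over all genes was 0.01 without OMM labelled replicate 2 and 0.65 without OMM unlabelled replicate 1. Of the ERM libraries, labelled replicate 1 lacked 5.02% of well-expressed genes. The counts were 203 higher and 18 lower without it, and 1041 and 77 without ERM labelled replicate 2. Mitochondrial lists had 86 of 552 higher and 0 lower, and the secretory lists 9 of 483 higher and 5 lower. An excess over ERM labelling was not particular to mitochondrial genes. Cytosolic ribosomal proteins had 30 of 46 higher in the large subunit (median 1.26) and 26 of 32 in the small one (median 1.27). With ERM labelling itself 44 of 46 and 30 of 32 of them fell. The share of secretory genes called higher was near that of all genes, and genes that were not called are not shown to be alike. CANX, for example, had 5966 and 4936 CPM in ERM labelled against 1347 and 1197 CPM in ERM unlabelled libraries, and its difference between OMM and ERM labelling was -0.44 ± 0.23 (adjusted p = 0.414). SCD was higher at the ER, with a difference of -0.82 ± 0.19 (adjusted p = 0.0135), as was UFL1, which attaches the modifier UFM1 at the ER, with -2.70 ± 0.43 (adjusted p = 0.00026).

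Several matrix enzymes were higher at the OMM than at the ER. Of the 37 mitochondrial genes that rose at the OMM, 9 also rose with ERM labelling and 3 fell, with a median log2 fold change of 0.09. Among all 552 mitochondrial list genes tested, 16 rose with ERM labelling and 227 fell, so the 37 rose there more often than their lists. Of all 681 genes higher at the OMM, 452 rose with ERM labelling and 6 fell. ALDH18A1 had 358 and 349 CPM in ERM labelled against 247 and 255 CPM in ERM unlabelled libraries, and its difference between OMM and ERM labelling was 2.83 ± 0.25 (adjusted p = 1.96e-08). VARS2 (2.99 ± 0.32), TARS2 (2.74 ± 0.31) and PMPCA (2.42) differed as strongly. Of the 86 mitochondrial genes 33 had a coding length up to 450 bases, and in that class both constructs were low, with a median of -0.65 at the OMM and -1.91 at the ERM. In that class 2 of 113 genes were higher and 21 lower against the OMM unlabelled libraries. The 6 largest differences by fold, such as MAPK13 and TLCD1, belonged to genes with a mean level of 5.97 to 11.6 CPM over the table and 0 counts in both ERM labelled libraries, and no fold is given for them.

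**Figure D4:**
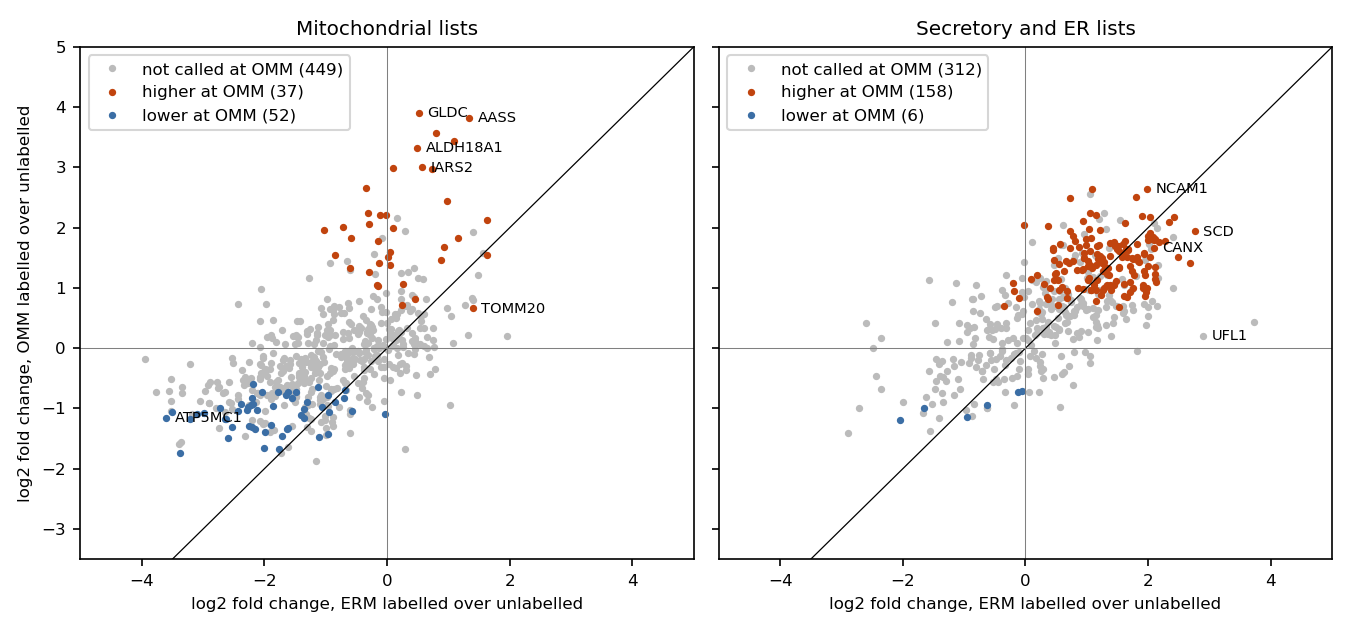
Log2 fold change of labelled over unlabelled libraries for OMM (vertical) against ERM (horizontal), for well-expressed genes of the mitochondrial lists (left) and the secretory and ER lists (right), coloured by the OMM call, with the line of equal change. The 37 higher mitochondrial genes lie mostly above the line and near 0 for ERM, and the 158 higher secretory genes scatter around it.

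Further OMM libraries of the study, which share no library with those above, were labelled after cycloheximide (which holds ribosomes on messages), puromycin (which releases nascent chains), CCCP (which dissipates the membrane potential needed for import) or nocodazole (which depolymerizes microtubules). They were counted in other tables and normalized separately, so levels are set side by side and the difference from untreated cells was not tested. The genes were chosen for being high in untreated cells, so lower values elsewhere are partly given by that choice. Labelled libraries lacked at most 0.921% of well-expressed genes. Some unlabelled ones lacked many, with 3.51% and 8.23% under cycloheximide, 12.9% and 14.9% at 3 min of nocodazole and 3.42% and 17.6% at 30 min. The median log2 fold change over all genes was 0.40 under cycloheximide, 0.08 under puromycin, 0.14 under CCCP, 0.62 at 3 min and 0.10 at 30 min of nocodazole. It moved with single libraries, from 0.07 (without labelled replicate 2) to 1.06 (without unlabelled replicate 1) under cycloheximide and from 0.25 to 1.64 at 3 min of nocodazole with the same libraries left out. At 30 min it was 0.66 without unlabelled replicate 1, and under CCCP 0.33. Over well-expressed genes the medians of the 5 sets were 0.04 to 0.13.

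The direction seen in untreated cells recurred in these libraries. The median over all genes was itself above 0 in each set, at 0.08 to 0.62, so a value above 0 was common among all genes. The genes higher in untreated cells had medians of 1.75 under cycloheximide, 0.51 under puromycin and 0.74 under CCCP. At 3 min of nocodazole their median was 1.15 and at 30 min 0.92. Of the 681 higher genes, 661 had a log2 fold change above 0 under cycloheximide, 632 under puromycin, 630 under CCCP, 641 at 3 min of nocodazole and 638 at 30 min. Of these, 595, 84, 263, 277 and 178 were called higher in the same order (with RLE size factors puromycin had 124 higher and 303 lower over all genes, against 202 and 254), where 12.4%, 0.942%, 3.27%, 7.48% and 2.49% of all genes tested were called higher. None of the 681 was called lower in any of the 5. Of the 450 lower genes 316, 165, 283, 128 and 187 were called lower again, against 5.35%, 1.18%, 3.57%, 1.47% and 1.42% of all genes. Of these 450, 5 were called higher under cycloheximide and 1 under puromycin.

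The 37 mitochondrial genes, which include outer membrane proteins and carriers, and the 158 secretory genes are given side by side, and the difference between the sets was not tested. Of the 37 mitochondrial genes, 36 were called higher under cycloheximide, with a median log2 fold change of 3.80, against 1.83 in untreated cells. Only 3 were called under puromycin (median 0.41) and 5 under CCCP (median 0.15). At 3 min of nocodazole 22 were called (median 1.24), and at 30 min 9 (median 0.47). Of the 158 secretory genes 154 were called under cycloheximide (median 1.81, against 1.42 in untreated cells), 31 under puromycin (median 0.55), 78 under CCCP (median 0.85), 93 at 3 min of nocodazole (median 1.40) and 58 at 30 min (median 1.00).

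ALDH18A1 shows the pattern of the first group. It had 7600 and 7577 CPM in cycloheximide labelled against 318 and 199 CPM in cycloheximide unlabelled libraries, a log2 fold change of 4.88. With puromycin it had 247 and 262 CPM in labelled against 200 and 183 CPM in unlabelled libraries (0.41, adjusted p = 0.398). With CCCP it had 281 and 256 CPM in labelled against 205 and 257 CPM in unlabelled libraries (0.21, adjusted p = 0.519), where the groups nearly met. At 3 min of nocodazole it had 2249 and 2127 CPM in labelled against 212 and 179 CPM in unlabelled libraries (3.48), and at 30 min 759 and 875 CPM in labelled against 243 and 448 CPM in unlabelled libraries (1.24, adjusted p = 0.000857).

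CANX kept a called rise in all 5. It had 7383 and 8198 CPM in cycloheximide labelled against 1357 and 1624 CPM in cycloheximide unlabelled libraries (log2 fold change 2.39). With puromycin it had 1577 and 1610 CPM in labelled against 949 and 900 CPM in unlabelled libraries (0.79, adjusted p = 0.00293). With CCCP it had 2385 and 2403 CPM in labelled against 1038 and 1102 CPM in unlabelled libraries (1.16, adjusted p = 1.99e-05).

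Cycloheximide labelling also reached mitochondrial genes that were not called in untreated cells, and again mainly long ones. Of the 108 genes of more than 1500 coding bases 84 were called higher (median 2.78) and 1 lower. Of 179 genes of 901 to 1500 bases 46 were higher and 16 lower. Of 138 and 113 genes in the 2 shorter classes 9 and 3 were higher, while 36 and 38 were lower. Outside the mitochondrial lists, 854 of 4938 coding genes of more than 1500 bases and 487 of 2770 of 901 to 1500 bases were higher. The tRNA synthetases had 13 of 17 higher with a median of 2.82. With CCCP 5 of the 108 longest genes were higher and 4 lower (median -0.05).

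**Figure D5:**
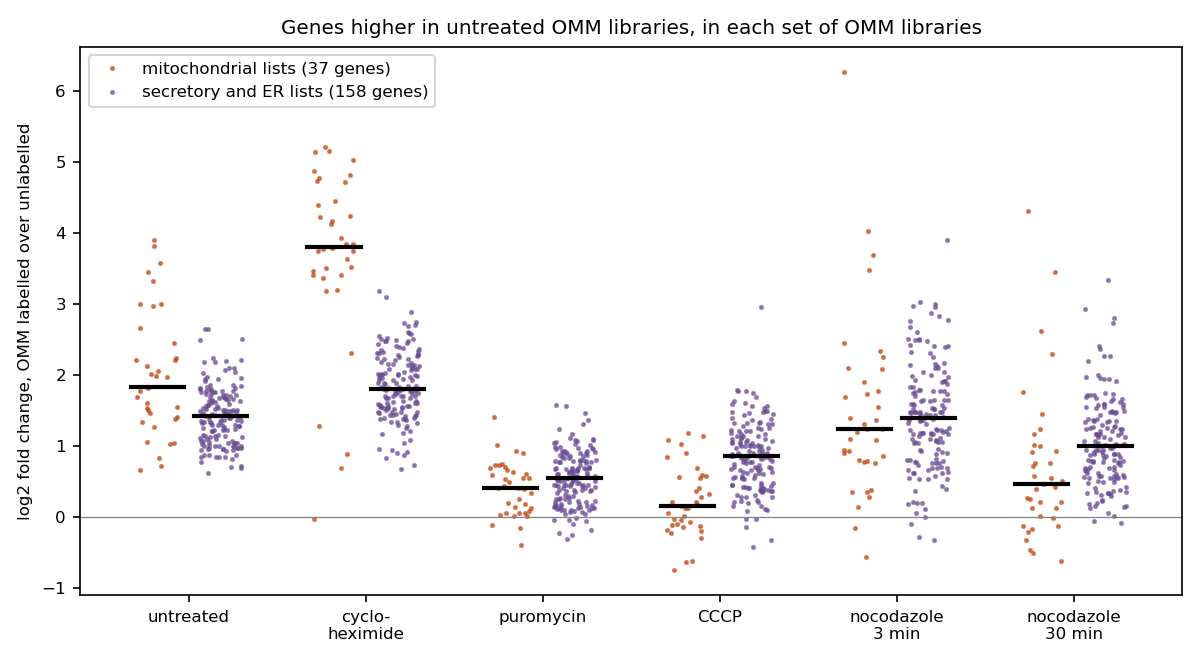
Log2 fold change of OMM labelled over unlabelled libraries in untreated cells and in 5 treated sets, for the 37 mitochondrial and 158 secretory genes called higher in untreated cells, 1 dot per gene with a black bar at the median. The medians of the mitochondrial genes run from 0.15 with CCCP to 3.80 with cycloheximide, and those of the secretory genes from 0.55 with puromycin to 1.81 with cycloheximide.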

How the data were processed

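The authors' deposited counts are raw reads per gene identifier from poly(A) libraries. Per the submitters' processing notes, Trimmomatic, STAR, HTSeq, SAMtools, bedtools and DESeq2 were used with GRCh38, and their roles and versions are not given in the sources used here. The authors' deposited table also gives log2 fold changes and p-values for OMM, whose header does not name the controls. Across 11813 well-expressed genes its log2 fold change correlated at 0.99 with a fit against the unlabelled libraries of all 9 constructs and at 0.78 with one against the OMM controls, and it was not used in any test.

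Here edgeR 4.0.16 in R 4.3.3 fitted 1 model of group means per table (36 untreated libraries, with the drug and nocodazole tables fitted apart), using TMM scaling and filterByExpr, and tested by quasi-likelihood F with a dispersion trend. P-values were adjusted by Benjamini-Hochberg over all genes of a comparison, and 0.05 was the threshold. Each SE was obtained by dividing the size of the log2 change by the root of its F value. CPM values are TMM-scaled. Depth was 9.33 to 76.7 M counts in the untreated table and 17.7 to 51.4 M counts in the 20 treated OMM libraries. Of 60675 identifiers 57055 were named by GENCODE 29, from which coding lengths and first codons were read. Features of protein sequences had been planned and were replaced by these. Reads were not used, so counts of pseudogenes, paralogs and overlapping genes stand as deposited.

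The members and the 42 gene lists were chosen with earlier results of these data known, and so were the length classes and the rule for named genes. That rule took the 14 largest rises and 10 largest falls among called genes of at least 5 CPM whose labelled libraries both lay beyond both unlabelled ones, up to 4 members of each list by p, every called member of the mitochondrial lists, the 6 highest and 4 lowest of each difference between constructs, and landmarks. A part of them is described, and some single genes are not reported here. Same-numbered labelled and unlabelled libraries did not deviate together (correlation of deviations -0.01), so replicate numbers were not taken to pair samples. The comparisons were repeated with DESeq2 1.42.0, with RLE scaling, without the low-count filter, with a replicate block, with the unlabelled libraries of all constructs, with an added minimum log2 change of 1, with no libraries besides the groups compared, and with single libraries removed (a lone library is then assumed to vary as other groups do). After the data were seen, a refit without libraries lacking over 2% of well-expressed genes and a count among genes of at least 5 CPM were added. The method was tested on simulated data.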

Additional observations from a re-analysis of the deposited data

Results flagged for a closer look

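Labelling at the OMM differed from that in the cytosol for 391 genes, by a test of the difference between the 2 contrasts. Of these 359 were higher at the OMM and 32 lower. The same test against the ER construct called 404 genes, of which 363 were higher at the OMM and 41 lower. Both stand here because the effect of peroxide differed between 2 constructs. In the second comparison ERM labelled replicate 1 lacked 5.02% of well-expressed genes. Without it 221 genes were called, and 1021 without every library of the table that lacked over 2% of them.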

How the results depend on the processing

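No named gene reversed its direction under a call in any of the 11 refits of the untreated comparison, and 97 of 181 called named genes kept their call in all of them. With RLE scaling, without the low-count filter and with the replicate block, the count of calls of every comparison stayed within 1.5 times, except OMM against ERM labelling, which called 644 with the block. The block called 1367 genes in the untreated comparison and 523 against NES. With only genes of at least 5 CPM 1128 genes were called in the untreated comparison and with an added minimum log2 change of 1 the number was 793.

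DESeq2 called more, with 1813 genes in the untreated comparison, 748 against NES, 1159 against ERM, 6063 with cycloheximide, 945 with puromycin, 2984 with CCCP, 4277 at 3 min and 2560 at 30 min of nocodazole. With only the libraries of a comparison the counts were 463, 130, 62, 1694, 2201, 886, 2683 and 0 in the same order; of the last, 2466 genes had an unadjusted p under 0.05. Controls of all 9 constructs gave 3006 calls. Without libraries lacking over 2% of well-expressed genes OMM against ERM labelling had 1021 calls. The cause of these changes was not tested.

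Leaving out 1 library gave 440 to 2184 calls for the untreated comparison, 134 to 1102 against NES, 189 to 1118 against ERM, 2325 to 6183 with cycloheximide, 102 to 152 with puromycin, 587 to 1116 with CCCP, 1019 to 3150 at 3 min and 232 to 3304 at 30 min of nocodazole. In the untreated comparison unlabelled replicate 2 gave the lowest count when left out and unlabelled replicate 1 the highest. For nocodazole the highest counts came without unlabelled replicate 1. In the treated sets 1 library often decides how many genes pass. Medians of the 37 mitochondrial and 158 secretory genes were not refitted there.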

Other observations

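KIF1A, a kinesin gene, stood apart from the matrix-protein transcripts beside which it ranked. It was high in every set of OMM libraries. With puromycin it had 1554 and 1805 CPM in labelled against 150 and 162 CPM in unlabelled libraries, a log2 fold change of 3.43 (adjusted p = 7.39e-07). With CCCP it had 1054 and 1194 CPM in labelled against 169 and 124 CPM in unlabelled libraries (2.94, adjusted p = 1.11e-06). The log2 fold change was 3.46 with cycloheximide, 2.46 at 3 min of nocodazole and 3.55 at 30 min. In untreated cells its difference between OMM and NES labelling was 1.63 ± 0.43 (adjusted p = 0.0371). That between OMM and ERM labelling was 1.44 ± 0.43 and did not pass (adjusted p = 0.0851). Both differences were smaller than its rise over the OMM unlabelled libraries, so its log2 fold change was above 0 with NES and ERM labelling too. KIF1A was chosen for mention after its values were seen.

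Outer membrane genes also differed among themselves in the treated libraries. CPT1A had a log2 fold change of 3.80 with cycloheximide and 1.40 with puromycin (adjusted p = 0.0316), and AKAP1 had 3.85 with cycloheximide, 0.84 with CCCP (adjusted p = 0.00567) and 0.92 at 30 min of nocodazole (adjusted p = 0.0104). TOMM20 had 1.28 with cycloheximide and was called in none of the other 4 sets.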
